A study of Mus musculus with 9 samples.

Results

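Genes that mark injured and dedifferentiated kidney tubules were followed across fed and fasted mouse kidneys. The set holds 10 genes, all of which were found by symbol among the 23420 genes of the deposited table: Havcr1, Lcn2, Spp1, Clu, Krt8, Krt18, Krt20, Vcam1, Cd44 and Sox9. RNA sequencing had been done on pieces of kidney cortex of about 50 mg from male C57/BL6 mice on a chow diet and a 12 h light-dark cycle. The fed group (5 mice) ate freely and the fasted group (4 mice) went without food for 16 h, with 1 library per mouse, and no other treatment or genotype is named. The design sets fasted against fed kidneys, gene by gene. Age, litter and time of collection are not given in the sources used here.

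The tubule cells of a healthy cortex are highly specialised for reabsorption. After toxic, ischaemic or obstructive injury the surviving cells lose transporters, regain features of the developing tubule and switch on a set of proteins used as injury markers, among them kidney injury molecule-1 (encoded by Havcr1) and neutrophil gelatinase-associated lipocalin (Lcn2). Several of these genes also have a steady level in parts of the normal kidney. Krt8 and Krt18 are expressed in ductal epithelium, Spp1 and Clu in distal tubule segments, and Vcam1 and Cd44 in vessels, stroma and leukocytes.

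Levels are normalized counts, that is reads per gene divided by the authors' size factor of the library. Changes are fasted over fed on the log2(value + 1) scale, with the standard error (SE), and a gene was called changed at a limma adjusted p under 0.05, adjusted over the 15098 genes that averaged 10 or more. All 10 genes passed that filter, Krt20 only through 2 libraries. The fed libraries held 19638174 to 32469467 reads and the fasted ones 18902645 to 27186745. Fed 3 stood apart with 5.53% of its normalized counts in the ribosomal RNA entry Rn45s, against 0.513% to 2.36% in the others. Proximal tubule markers far outweighed those of the inner medulla, with no medulla library to compare. The 5 proximal tubule genes summed to between 453651 and 652066 normalized counts in each library (of the 5, Slc34a1 was called lower). The 4 thin limb and inner medulla genes summed to between 2789 and 4448. Of these, Slc14a2 ran from 311 in Fasted 3 to 1626 in Fasted 1. Whether the pieces held an even share of medulla was not tested. In pieces of whole tissue, fewer cells of a type and less RNA per cell cannot be told apart.

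In fasted kidneys the paired keratins Krt8 and Krt18 rose by about the same amount, and none of the other 8 genes passed the test. Krt8 rose by 0.57 on the log2 scale and Krt18 by 0.50. The classical injury markers Havcr1 and Lcn2, with Krt20, were instead very uneven between mice of the same group: all 3 were highest in the same fed mouse and in the same fasted mouse. Of Spp1 and Clu, the most abundant of the 10 per length of transcript, Clu was close in both groups. Spp1 had a log2 change of -0.23 and did not pass (limma adjusted p = 0.17). A call was thus made for 2 of 10 genes, both higher, where the background over all genes tested was 11% called in either direction, 5.72% called higher and 5.25% called lower. No member was called lower by limma, edgeR or voom, nor by DESeq2 among the 8 for which it gave an adjusted p (not Havcr1 or Krt20), and 1, Spp1, was lower at an unadjusted limma p under 0.05. At that unadjusted threshold 2039 of all 15098 genes tested were higher and 2013 lower. The median change of the 10 genes was 0.32, against 0.00089 over all genes tested. This median fell between Lcn2 (0.31) and Vcam1 (0.34), neither of which passed, and Lcn2 was at 0.07 with edgeR.

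**Figure D1:**
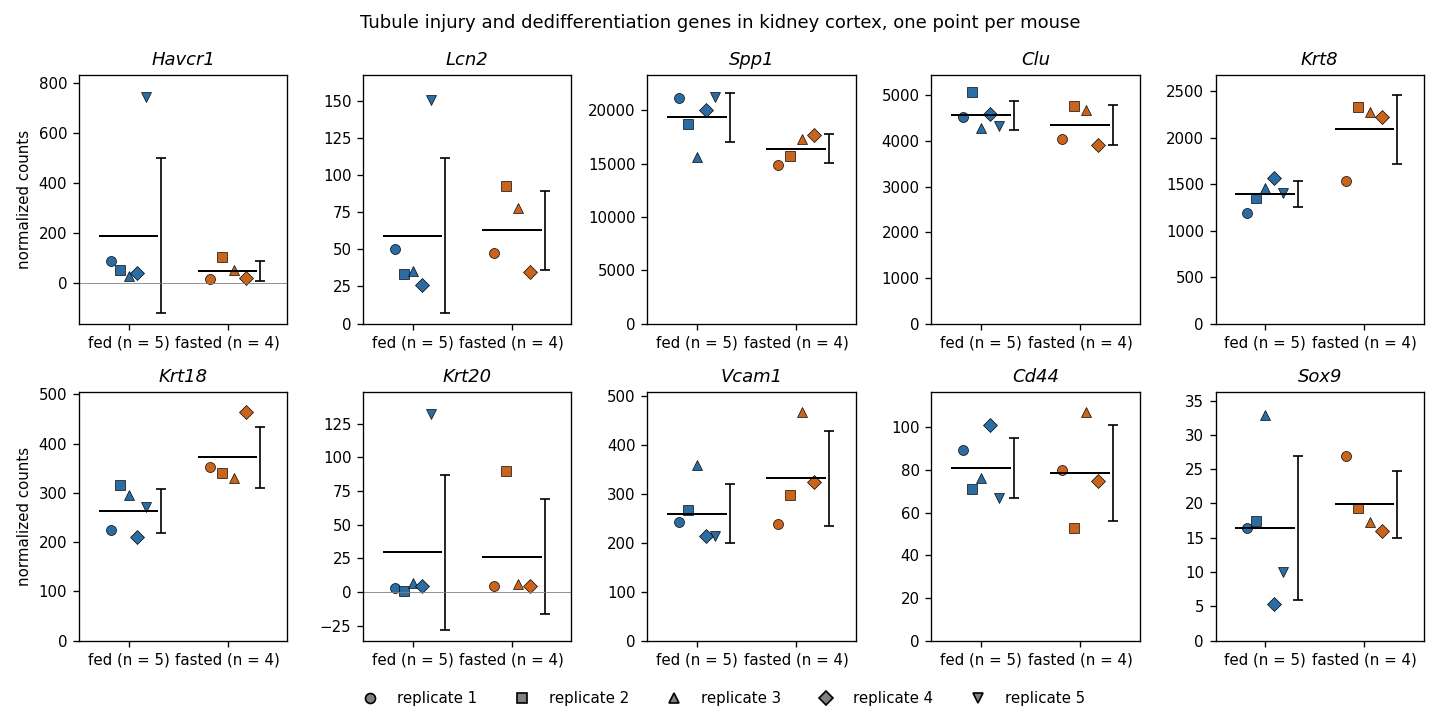
Normalized counts (vertical axis, linear) of each of the 10 genes in 5 fed (blue) and 4 fasted (orange) mice, 1 point per mouse with a marker shape per replicate number, the group mean as a line and the SD as the bar beside it. Krt18 lies higher in all 4 fasted mice, while for Havcr1, Lcn2 and Krt20 the point of Fed 5 lies far above the other fed mice.

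**Figure D2:**
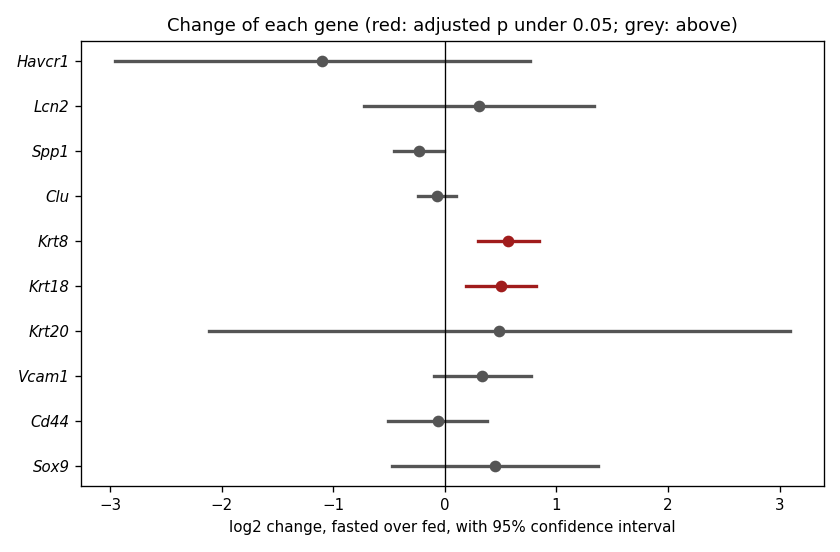
Log2 change, fasted over fed, of each gene with its 95% confidence interval from limma (horizontal axis), red for an adjusted p under 0.05. The intervals of Krt8 and Krt18 lie above 0, those of Havcr1 and Krt20 span several log2 units, and those of Clu and Spp1 are the narrowest.

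The keratins held both genes that were called. Keratin 8 and keratin 18 pair as type II and type I partners into the intermediate filaments of simple epithelia, and their genes are neighbours. On GRCm38, with GENCODE M21, Krt8 lies at chr15:101996698-102004482 on the minus strand and Krt18 at chr15:102028180-102032027 on the plus strand, 23697 bases apart. Krt20, a type I keratin of intestinal and urothelial epithelium that appears in injured tubules, lies elsewhere, at chr11:99428403-99438150 on the minus strand. The sequences before the start sites of these keratins are shown because 2 of the genes rose together while the third was near 0 in 7 of 9 libraries. They come from RefSeq on GRCm38.p6 (chr15:102004483-102004592 on the minus strand, chr15:102027966-102028179 on the plus strand and chr11:99438154-99438403 on the minus strand), read 5′ to 3′ along the gene, and hold only bases before both the RefSeq start site and the start of the GENCODE gene. Capitals mark a TATA box (TATAAA).
Krt8: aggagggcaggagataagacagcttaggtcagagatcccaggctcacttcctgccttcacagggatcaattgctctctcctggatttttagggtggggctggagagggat
Krt18: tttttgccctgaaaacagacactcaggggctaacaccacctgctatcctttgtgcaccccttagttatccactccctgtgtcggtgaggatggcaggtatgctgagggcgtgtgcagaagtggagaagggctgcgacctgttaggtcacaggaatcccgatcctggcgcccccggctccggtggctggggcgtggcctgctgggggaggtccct
Krt20: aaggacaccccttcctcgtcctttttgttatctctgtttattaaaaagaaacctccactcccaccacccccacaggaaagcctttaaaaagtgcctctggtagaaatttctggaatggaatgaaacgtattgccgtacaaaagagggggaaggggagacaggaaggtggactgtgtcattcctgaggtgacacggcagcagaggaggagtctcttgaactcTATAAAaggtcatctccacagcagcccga
In the full windows of 250 bases before the RefSeq start sites, both strands were searched for the TATA box, the GC box (GGGCGG), the AP-1 motif (TGANTCA) and the CCAAT box (CCAAT). The Krt8 and Krt18 windows held none of the 4, and the Krt20 window held 1 TATA box, 29 to 24 bases before the start. Over all 32851 RefSeq windows of that length, 12.4% held the TATA box, 32.7% the GC box, 6.75% the AP-1 motif and 33.8% the CCAAT box. A match or its absence describes these letters only.

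Krt8 was at 1194, 1348, 1456, 1568 and 1408 normalized counts in Fed 1 to Fed 5 and at 1534, 2327, 2271 and 2223 in Fasted 1 to Fasted 4. Of the fasted mice 3 lay well above every fed mouse, and Fasted 1 lay below Fed 4, so that the groups overlapped. The means were 1395 ± 138 (SD, n = 5) and 2089 ± 372 (SD, n = 4), a log2 change of 0.57 (SE 0.12, 95% interval 0.29 to 0.84, limma adjusted p = 0.0155), which is 1.48-fold. The call was lost without Fasted 4 (adjusted p = 0.054) and, an alternative chosen after seeing the data, without Fed 5 and Fasted 2 together (0.063). A non-coding gene is annotated on the opposite strand within Krt8, and the strand setting of the counting is not given in the sources used here, so reads of the 2 cannot be told apart.

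Krt18 was at 225, 315, 295, 210.5 and 271 in Fed 1 to Fed 5 and at 352, 341, 329.9 and 464 in Fasted 1 to Fasted 4. All 4 fasted mice lay above all 5 fed mice, which held for 14.3% of all genes tested in one direction or the other. The means were 263 ± 44.6 (SD, n = 5) and 372 ± 62.3 (SD, n = 4), with a log2 change of 0.50 (SE 0.14, 95% interval 0.19 to 0.82, limma adjusted p = 0.047), which is 1.41-fold. This adjusted p lies just inside the threshold. It passed without Fed 2 (0.040) or Fed 3 (0.045) and not without any other single library (Fed 1 0.11, Fed 4 0.081, Fed 5 0.057, Fasted 1 0.086, Fasted 2 0.072, Fasted 3 0.064, Fasted 4 0.14). In the authors' deposited table, both genes passed, with a log2 fold change of 0.54 and an adjusted p of 0.000244 for Krt8 and with 0.45 and 0.0113 for Krt18.

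The ratio of Krt8 to Krt18 within a library does not depend on the size factor. It lay between 4.28 and 7.45 in fed and between 4.35 and 6.88 in fasted mice. On the log2 scale the means were 2.42 ± 0.29 (SD, n = 5) and 2.48 ± 0.34 (SD, n = 4), a difference of 0.07 (exact two-sided permutation test, p = 0.78, where 0.016 is the smallest possible). The observed difference in ratio was smaller than the change of either keratin. The ratio varied too much between mice to show that it stayed the same. Across the 9 libraries Krt8 and Krt18 had Pearson's r = 0.65 (exact permutation p = 0.061, adjusted 0.18 over the 3 pairs computed) and Spearman's rho = 0.53 (exact permutation p = 0.15, adjusted 0.44). Without Fasted 2 and Fasted 3, the libraries farthest from the median of Krt8, r was 0.73 (n = 7, exact permutation p = 0.068). Once each group's mean was removed r was 0.04, so within a group a mouse high in Krt8 was not also high in Krt18. Fasted 1 had the lowest Krt8 of the fasted mice with 352 for Krt18, and Fed 4 had the highest Krt8 of the fed mice with the lowest Krt18.

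**Figure D3:**
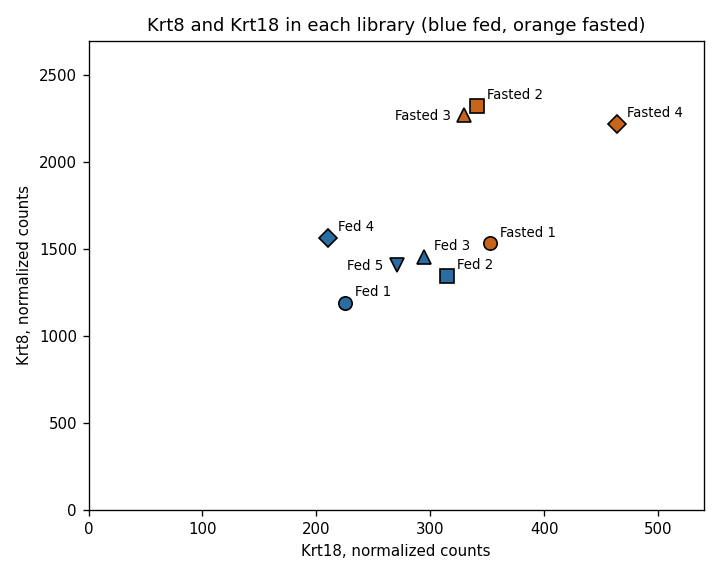
Krt8 (vertical axis) against Krt18 (horizontal axis), both in normalized counts on linear axes from 0, 1 point per library with its name. The fasted libraries lie to the right of all fed libraries in Krt18, and 3 of the 4 lie above all fed libraries in Krt8.

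Other epithelial genes were set beside the keratins. The 7 principal cell markers of the collecting duct, where Krt8 and Krt18 are normally found, summed to 9533 to 12801 in fed and 9489 to 10006 in fasted libraries. None of the 7 passed (limma adjusted p of 0.060 or more), with 1 higher and 1 lower at an unadjusted p under 0.05. The 5 thick ascending limb markers summed to 173264 to 218894 and 196345 to 251813 (limma adjusted p of 0.26 or more, 0 at an unadjusted p under 0.05). Of the 5 markers of intercalated cells, the other cell type of the collecting duct, 2 were called lower, Slc4a1 (-0.58, limma adjusted p = 0.0068) and Foxi1 (-0.46, limma adjusted p = 0.032). Of the 4 markers of the distal convoluted tubule 1 was called higher, Trpm6 (0.41, limma adjusted p = 0.043). Of the 7 urothelial markers 2 could be tested and neither passed (limma adjusted p = 0.43 and 0.83). The 7 summed to 37.6 to 61.8 in fed and 43.2 to 109 in fasted libraries, with the highest values in Fasted 1 (109) and Fasted 4 (85.4). Krt18 was also highest in these 2 mice (352 and 464), while Krt8 was lowest of the fasted mice there (1534 and 2223). The part of urothelium in the Krt8 and Krt18 values was not tested. The other ductal keratins of the wider injury list, looked at after their values were seen, did not pass: Krt7 had 1774 ± 216 and 1827 ± 183 (limma adjusted p = 0.81), and Krt19 had 14.04 ± 4.20 and 24.9 ± 14.01 (limma adjusted p = 0.32).

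Krt20 was at 2.98, 0.921, 6.58, 4.30 and 132 in Fed 1 to Fed 5 and at 4.65, 90.0, 5.75 and 4.45 in Fasted 1 to Fasted 4. Fed 5 and Fasted 2 stood far above the rest, which rested on 1 to 6 reads each, while Fed 5 had 133 reads and Fasted 2 had 70. The highest fed library was 20.1 times the next and the highest fasted library 15.6 times the next. The groups did not differ by more than this spread (log2 change 0.49, SE 1.19, 95% interval -2.12 to 3.09, limma adjusted p = 0.83). In Fed 5 and Fasted 2 the urothelial markers summed to 46.7 and 69.4, inside the range of the other libraries. The uroplakin genes Upk1b and Upk3a were at 2.98 and 0.995 in Fed 5 and both at 11.6 in Fasted 2, and Upk2 was at 0 in both. Upk1b and Upk3a were highest in Fasted 1 (22.3 and 17.7), where Krt20 was at 4.65. The part of urothelium in the Krt20 values was not tested.

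Havcr1 encodes a phosphatidylserine receptor of the proximal tubule surface that is scarce in the healthy kidney. It was at 87.8, 51.6, 28.9, 40.8 and 743 in Fed 1 to Fed 5 and at 17.7, 104, 52.8 and 22.2 in Fasted 1 to Fasted 4. Fed 5 alone was 8.46 times the next fed mouse, and Fasted 2 was 1.97 times the next fasted mouse, so the groups overlapped widely. The log2 change was -1.10 (SE 0.85, 95% interval -2.96 to 0.76, limma adjusted p = 0.44), and without Fed 5 it was -0.31 (adjusted p = 0.74). In Fed 5 the 5 proximal tubule markers summed to 475755, the lowest of the fed mice (548052 to 652066 in the others) and inside the fasted range of 453651 to 508776. Whether these values bear on the Havcr1 level in that mouse was not tested. The authors' deposited table leaves the p-value and the adjusted p-value blank for Havcr1 and Krt20.

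Lcn2 encodes a secreted protein that binds iron-carrying siderophores and is made by stressed tubule cells and by neutrophils. It was at 50.6, 33.1, 35.5, 25.8 and 151 in Fed 1 to Fed 5 and at 47.4, 92.6, 77.7 and 34.7 in Fasted 1 to Fasted 4. Fed 5 was again the highest fed mouse, at 2.99 times the next, and Fasted 2 the highest fasted mouse, at 1.19 times the next. The log2 change was 0.31 (SE 0.47, 95% interval -0.72 to 1.34, limma adjusted p = 0.72), and 0.72 without Fed 5 (adjusted p = 0.17). It was 0.09 without Fasted 2 or without Fed 4 and 0.07 with edgeR, so 1 library or the tool moved it several-fold either way. The 4 neutrophil markers found in the table, of which Mpo was at 0 throughout, summed to 8.95 in Fed 5, the lowest of all libraries, and to 30.9 in Fasted 2. Their highest sum was 195, in Fasted 3. These markers were near 0 in several libraries, and the part of neutrophils in the Lcn2 values was not tested.

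Spp1 encodes osteopontin, a secreted phosphoprotein that binds integrins and CD44. It was at 21116, 18737, 15575, 19998 and 21209 in Fed 1 to Fed 5 and at 14844, 15666, 17337 and 17679 in Fasted 1 to Fasted 4. Among the fed mice 4 lay above all fasted mice, and Fed 3 lay among the fasted values. The means were 19327 ± 2325 (SD, n = 5) and 16381 ± 1351 (SD, n = 4), a log2 change of -0.23 (SE 0.10, 95% interval -0.46 to -0.0096). It did not pass (limma adjusted p = 0.17, unadjusted 0.042). Without Fed 3, the library with the highest Rn45s share, it passed as lower, at -0.31 (adjusted p = 0.037). Without both Fed 3 and Fasted 1, which had the next highest share, it did not (-0.26, adjusted p = 0.099).

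Clu encodes clusterin, a secreted chaperone. It was at 4517, 5081, 4278, 4584 and 4335 in Fed 1 to Fed 5 and at 4039, 4761, 4672 and 3919 in Fasted 1 to Fasted 4, with the groups interleaved. The log2 change was -0.07 (SE 0.08, 95% interval -0.24 to 0.10, limma adjusted p = 0.61). The interval leaves room for a fold between 0.844 and 1.07, the narrowest of the 10 genes.

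Vcam1 encodes an adhesion receptor for leukocyte integrins that is found on activated endothelium and on tubule cells that fail to recover after injury. It was at 243, 267, 359, 215 and 215 in Fed 1 to Fed 5 and at 239, 297, 467 and 325 in Fasted 1 to Fasted 4. Fasted 3 and Fed 3 were the highest of their groups, and Fasted 1 lay below 3 of the fed mice. The log2 change was 0.34 (SE 0.20, 95% interval -0.10 to 0.77, limma adjusted p = 0.31). It was 0.60 without Fed 3 and Fasted 1, the libraries highest in Rn45s (adjusted p = 0.057, unadjusted 0.0046), and 0.16 without Fasted 3. Of the 6 endothelial markers 1 was higher and 1 lower, and their sum was 10761 to 12441 in fed and 11285 to 12096 in fasted libraries. An antisense gene is annotated within Vcam1, with the same limit on strand as for Krt8.

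Cd44 encodes the receptor for hyaluronan, which also binds osteopontin. It was at 89.3, 70.9, 76.3, 101 and 66.6 in Fed 1 to Fed 5 and at 80.0, 52.7, 107 and 74.7 in Fasted 1 to Fasted 4. The groups overlapped throughout, and the log2 change was -0.07 (SE 0.20, 95% interval -0.51 to 0.38, limma adjusted p = 0.87). Fasted 3 had the highest Cd44 and Fasted 2 the lowest. The leukocyte gene Ptprc was also highest in Fasted 3 (647) and lowest in Fasted 2 (324), and the 6 macrophage markers summed to 2711 and 1740 there. The highest macrophage sum was in Fed 3 (2786), where Cd44 was at 76.3. The part of leukocytes in the Cd44 values was not tested. Spp1 and its receptor Cd44 had Pearson's r = 0.26 across the 9 libraries (exact permutation p = 0.50, adjusted 0.75 over 3 pairs) and Spearman's rho = -0.03 (exact permutation p = 0.95, adjusted 0.95). Without Fed 1 and Fed 5 r was 0.44 (n = 7, exact permutation p = 0.34). For Krt18 and Krt20 no coefficient is given, since Krt20 falls into 2 separate clusters of libraries.

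Sox9 encodes a transcription factor of the developing and regenerating tubule. It was at 16.4, 17.5, 32.9, 5.37 and 9.95 in Fed 1 to Fed 5 and at 27.0, 19.3, 17.3 and 16.0 in Fasted 1 to Fasted 4. The fed mice spanned a wider range than the fasted mice, from 5 reads in Fed 4 to 25 in Fed 3, against 15 to 29 reads in the fasted mice. The log2 change was 0.45 (SE 0.42, 95% interval -0.47 to 1.37, limma adjusted p = 0.53). The interval does not exclude a level 2-fold higher, and the change was 0.14 without Fed 4, the library with the fewest Sox9 reads, and 0.74 without Fed 3, the library with the highest value of the fed mice.

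The 10 genes differed widely in how much they varied between mice. The SD of log2(value + 1) within groups was 2.20 for Krt20, 1.58 for Havcr1, 0.85 for Lcn2 and 0.71 for Sox9, against a median of 0.17 over all genes tested. These values lay at the percentiles 99.9, 99.5, 98.5 and 97.6 of all genes tested. For Clu (0.12) and Spp1 (0.16) the spread was at or below that median, and Krt8 (0.22) and Krt18 (0.24) lay a little above it. Fed 5 was the highest fed library and Fasted 2 the highest fasted library for 3 of the 10 genes, Havcr1, Lcn2 and Krt20, and for 6.91% of all genes tested. In Fed 5 the remaining keratins, Krt8 and Krt18, were at 1408 and 271, near the fed means. Vcam1, Cd44 and Sox9 in that mouse lay below their fed means.

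**Figure D4:**
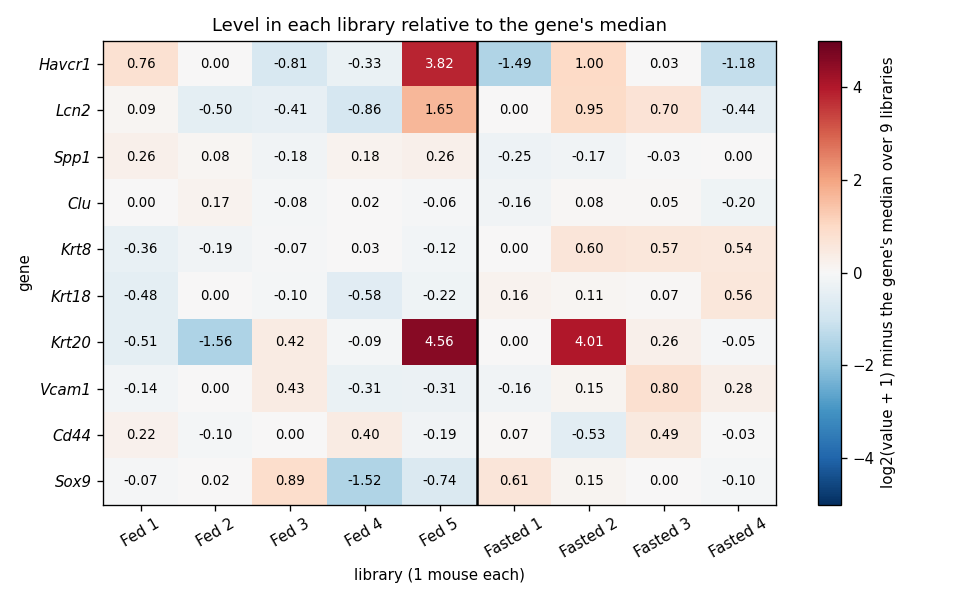
Level of each gene (rows) in each of the 9 libraries (columns), as log2(value + 1) minus the gene's median over the libraries, printed in each cell and coloured from blue (lower) to red (higher), with a line between fed and fasted. Krt20 stands at 4.56 in Fed 5 and 4.01 in Fasted 2, and Havcr1 at 3.82 in Fed 5, while Krt8 is raised in Fasted 2, Fasted 3 and Fasted 4.

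Per kilobase of annotated exon, the order of levels in fed mice ran from Spp1 (11728 ± 1411 normalized counts per kb) through Clu (1326 ± 92.4) and Krt8 (712 ± 70.6) to Krt18 (183 ± 31.1). Havcr1 (82.4 ± 134), Vcam1 (29.3 ± 6.73), Lcn2 (22.6 ± 19.9), Krt20 (15.3 ± 29.9), Cd44 (11.9 ± 2.08) and Sox9 (3.97 ± 2.53) followed. The first 4 were separated by more than their SDs (n = 5), and the places of Havcr1, Lcn2 and Krt20 were not, since each rests on Fed 5. In fasted mice the first 4 kept that order, with 9940 ± 820 for Spp1, 1265 ± 125 for Clu, 1067 ± 190 for Krt8 and 259 ± 43.3 for Krt18.

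Other genes of tubule injury and repair behaved in part alike. Of 41 tested genes of a wider list 6 rose and none fell (14.6% called, against 11% of all genes), with a median log2 change of 0.13. This list, like those below, was chosen with earlier results of these data known, so its counts only describe it. At an unadjusted limma p under 0.05 12 were higher and 2 lower, against 2039 and 2013 of all 15098 genes tested. At the adjusted threshold voom called 1 lower where edgeR and DESeq2 called none. S100a10, a partner of annexin 2 at the membrane, rose from 1517 ± 237 to 3082 ± 317 (log2 change 1.03, SE 0.11, limma adjusted p = 0.00042). Fga, the fibrinogen alpha chain, rose from 1144 ± 346 to 3243 ± 678 (1.53, SE 0.22, limma adjusted p = 0.0017). Ctgf, a matricellular protein, rose from 1678 ± 411 to 2957 ± 300 (0.85, SE 0.16, limma adjusted p = 0.0086), and Lrg1, a secreted glycoprotein, from 98.6 ± 28.9 to 255 ± 106 (1.33, SE 0.28, limma adjusted p = 0.012). In these 4 genes, named for their small adjusted p, every fasted mouse lay above every fed mouse. Over the list the groups did not overlap for 5 of 41 genes, against 14.3% of all genes tested. The other called genes of the list, outside the rule for naming, were Hmox1 (haem oxygenase 1) and Cd24a. The intermediate filament gene Vim, the growth arrest gene Cdkn1a and the developmental factors Sox4 and Pax2 did not pass (limma adjusted p = 0.72, 0.11, 0.97 and 0.44).

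Dedifferentiated tubules lose proximal transporters, so these were counted as well. Of 28 genes of the differentiated proximal tubule 3 rose and 2 fell (17.9% called, against 11% of all genes), with a median log2 change of -0.10. At an unadjusted limma p under 0.05 5 were higher and 8 lower, against 2039 and 2013 of all 15098 genes tested. Pck1 (gluconeogenesis, log2 change 2.13, SE 0.30), Slc13a3 (dicarboxylate uptake, 0.41, SE 0.10) and Slc22a12 (urate uptake, 0.34, SE 0.09) rose, with limma adjusted p-values of 0.0016, 0.024 and 0.031. The phosphate carrier Slc34a1 fell by 0.58 (SE 0.16, limma adjusted p = 0.038), and the other gene that fell was its relative Slc34a3. The count of genes that fell was 0 without Fed 1, Fed 2 or any single fasted library, 1 without Fed 3 or Fed 4 and 6 without Fed 5. The count of genes that rose was 1 without Fed 1 or Fasted 3. Hnf4a, a transcription factor of proximal tubule identity, had a log2 change of -0.09 (SE 0.07) without passing (limma adjusted p = 0.45).

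Among 16 tested partners and receptors of the 10 proteins 1 rose and 1 fell (12.5% called, near the 11% of all genes, median log2 change 0.12). At an unadjusted limma p under 0.05 6 were higher and 1 lower, against 2039 and 2013 of all 15098 genes tested. Hyal1, a lysosomal enzyme that degrades the Cd44 ligand hyaluronan, rose from 338 ± 49.6 to 656 ± 69.5 (log2 change 0.96, SE 0.12, limma adjusted p = 0.00078), and its groups did not overlap. Vldlr, a lipoprotein receptor that can bind clusterin, fell from 4937 ± 283 to 3931 ± 290 (-0.33, SE 0.07, limma adjusted p = 0.013). The integrin chains that bind osteopontin and VCAM-1 did not pass. Itgav had a log2 change of 0.19 (SE 0.07, limma adjusted p = 0.10) and Itga4 0.16 (SE 0.12, limma adjusted p = 0.45). Itgb3 had 0.64 (SE 0.21, limma adjusted p = 0.078) and Itgb5 0.18 (SE 0.06, limma adjusted p = 0.086). Itga9, Itgb1 and Itgb7 had -0.25, -0.07 and 0.09 (limma adjusted p = 0.28, 0.51 and 0.77). The count of genes that rose was 2 without Fed 5 or Fasted 4.

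Genes of NF-kB signalling and the acute phase, which can drive Lcn2 and Vcam1, were counted too. Of 17 tested, 2 rose and none fell (11.8% called, near the 11% of all genes, median log2 change 0.27). At an unadjusted limma p under 0.05 3 were higher and 0 lower, against 2039 and 2013 of all 15098 genes tested. The count that fell was 1 with voom and 0 with edgeR and DESeq2, and it was 1 without Fed 5. Stat3, a transcription factor of cytokine signalling, rose from 2425 ± 199 to 3189 ± 335 (0.39, SE 0.09, limma adjusted p = 0.015). Icam1, an adhesion receptor like Vcam1, rose from 502 ± 51.6 to 772 ± 212 (0.59, SE 0.16, limma adjusted p = 0.037). Only 1 gene of this list rose without Fed 1, Fed 2, Fed 4, Fed 5, Fasted 2, Fasted 3 or Fasted 4. The inhibitor gene Nfkbia had 1277 ± 877 and 1561 ± 585 without passing (limma adjusted p = 0.51).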

How the data were processed

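Kidney cortex libraries of 5 fed and 4 fasted mice were grouped by the treatment given in the labels. FastQC, TopHat2 2.0.9, HTSeq 0.9.1 and DESeq2 (version given as 3.5) are named per the submitters' processing notes, with mm10 and hg19 as builds. The annotation is not given in the sources used here. The deposited signal holds read counts that the authors scaled by a size factor for each library. Each of the 161194 values above 0 came out as a whole number of reads within 0.01, so reads were recovered. 1 read is worth 0.744 to 1.32 normalized counts. The deposited log2 fold changes, score and p-values (blank for some genes) are the authors' fit.

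For the main test log2(value + 1) of genes averaging 10 or more was fitted by limma 3.58.1 (R 4.3.3, empirical Bayes trend), and two-sided p-values were adjusted by Benjamini-Hochberg across all genes tested. The steps were tested on simulated data, where 80% of 2-fold and 99.0% of 4-fold changes were recovered, with 6 false calls among 184. Changes smaller than 2-fold, such as those of Krt8 and Krt18, were not simulated. Alternatives were other filters, pseudocounts and normalizations, edgeR 4.0.16, DESeq2 1.42.0 and voom on recovered reads, log2 Alb as a covariate and libraries left out. Members, lists and rules were chosen with earlier results of these data known. All members were named, and from each other list up to 4 called genes with the smallest adjusted p. Markers, any gene said to lie outside that rule and listed genes named as not passing are further. Positions and exon lengths are from GENCODE M21 by Ensembl identifier (10 of 10 matched). RefSeq promoters were found for 7 of the 10 genes. The annotation-term tables were not used here, and 0 sample columns were left unused. The p-values measure the spread between these mice only.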

Additional observations from a re-analysis of the deposited data

Results flagged for a closer look

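In 44 groups of 4 or 5 mice (22 genes, fed and fasted), 8 held a library far from the rest of its group. For normally distributed values, chance alone exceeds such a gap in about 1 of 20 groups. Normalized counts need not be so distributed, and the same mice recur across genes, so this rate is a guide only. Fed 5 was far above the other fed mice in Havcr1 (743 against 28.9 to 87.8 normalized counts), Lcn2 (151 against 25.8 to 50.6) and Krt20 (132 against 0.921 to 6.58). Fasted 2 was far above the other fasted mice in Krt20 (90.0 against 4.45 to 5.75). Fasted 1 lay far below the other fasted mice in Krt8 (1534 against 2223 to 2327), and Fasted 4 far above them in Krt18 (464 against 329.9 to 352). Fed 3 lay above the other fed mice in Icam1 (591 against 460 to 496), and Fasted 3 above the other fasted mice in Slc13a3 (23847 against 19190 to 19870).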

How the results depend on the processing

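Precision is limited by 4 and 5 mice, and for Krt20 and Sox9 by libraries with as few as 1 and 5 reads. Of 22 alternatives Krt8 was called in 20 and Krt18 in 10. Without fed 5 and fasted 2, chosen after seeing the data, Krt8 did not pass (0.51, adjusted p = 0.063), nor did Krt18 (0.55, 0.086). Krt18 did not pass either with a mean of at least 1 (0.50, 0.051), without a filter (0.50, 0.057), without the 2 libraries highest in Rn45s (0.57, 0.081) or with log2 Alb as a covariate (0.41, 0.12). In each of these 4 settings 1 member rose, and without fed 5 and fasted 2 the count was 0. The Havcr1 change was -2.01 with edgeR. The Krt20 change was -0.28 with edgeR, Cd44 was at 0.045 without fed 5 and fasted 2, and the Krt8 to Krt18 difference was -0.039 there, each with its sign turned and none past a threshold.

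Leaving out 1 library each, log2 changes ranged over 0.51 to 0.71 for Krt8, 0.39 to 0.57 for Krt18, -0.50 to 1.49 for Krt20, -0.23 to 0.11 for Cd44, -0.31 to -0.19 for Spp1, -1.57 to -0.31 for Havcr1, 0.09 to 0.72 for Lcn2, 0.14 to 0.74 for Sox9, 0.16 to 0.48 for Vcam1 and -0.12 to -0.02 for Clu, and the ratio difference over -0.033 to 0.19. Members that rose ranged over 0 to 2 and members that fell over 0 to 1. All genes called ranged over 861 to 1959, against 1656, and were 2705 with voom and 1068 without the 2 libraries highest in Rn45s.

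For proximal tubule genes, single libraries left out gave 1 to 3 that rose and 0 to 6 that fell. Those that rose were 5 with voom or DESeq2, 1 with Alb as covariate and 1 without fed 5 and fasted 2. Those that fell were 8 with voom, 4 with edgeR, 5 with DESeq2, 1 without a filter, 1 without the 2 libraries highest in Rn45s and 6 without fed 5 and fasted 2. Of the wider injury genes 1 fell with voom. Of the partners 3 rose with voom and 5 with DESeq2, and 1 to 2 with single libraries left out. Of the NF-kB genes 1 to 2 rose and 0 to 1 fell with single libraries left out, 1 rose with Alb as covariate, 1 rose and 1 fell without fed 5 and fasted 2, and 1 fell with voom. No paired analysis was possible because the labels give no replicate numbers shared by the groups.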

Other observations

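Other genes of the wider injury list showed single mice with high values, looked at after their values were seen. Lgals3, which encodes the lectin galectin-3, was highest in Fed 5 (947 normalized counts) among fed and in Fasted 2 (721) among fasted mice. The other fed mice had 463 to 609 and the other fasted mice 419 to 623. Of the 41 genes tested in that list, Lgals3 and Tnfrsf12a, a receptor of the TNF family, had the same highest libraries as Havcr1, Lcn2 and Krt20. That is 4.88% of the list, against 6.91% of all genes tested, and for Tnfrsf12a Fed 5 (232.7) barely exceeded Fed 2 (231.1). Hmox1, which breaks down haem, stood at 2469 in Fasted 2 and at 782 to 1102 in the other fasted mice, and Lrg1 at 406 and 175 to 253. Among fed mice these genes were at 499 to 655 and 67.0 to 126.

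Some acute phase transcripts followed another order, looked at after their values were seen. Hp, which encodes haptoglobin, was at 17.1 in Fed 1 and 21.9 in Fed 5 and at 160.0 to 822 in the other 7 libraries. Saa1 was at 1.49 and 4.97 in Fed 1 and Fed 5 and at 24.9 to 203 in the others. The liver gene Alb was also lowest in Fed 1 (251) and Fed 5 (402), against 1848 to 10091 in the others. Other liver-made transcripts shared this order only in part. Apoa1 was at 21.6 and 52.7 in Fed 1 and Fed 5 (164 to 996 in the others) and Ahsg at 8.19 and 21.9 (199 to 1109). Apoa2, Fgb, Saa2 and Orm1 were also lowest in Fed 1 and Fed 5. Ttr was lowest in Fed 5 (747) but at 1433 in Fed 1, above Fasted 4 (872). Among fed mice Serpina1a and Cp were highest in Fed 5 (501 and 3159), and Fgg was second highest there (902).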
